A study of Mus musculus with 4 samples.

Results

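The genes of fatty acid synthesis, chain elongation and desaturation were compared between mouse T cells grown with Tc1 cytokines and mouse T cells grown with Tc9 cytokines. The 10 genes were chosen by function, as 4 enzymes of carbon supply, malonyl-CoA and palmitate synthesis (Acly, Acaca, Acacb and Fasn), 3 elongases (Elovl1, Elovl5 and Elovl6) and 3 front-end desaturases (Fads1, Fads2 and Fads3). These 10 of the 19505 genes measured on the array were chosen with earlier results of these data known. Each was represented by a single probe set, a group of array probes for 1 gene. The study hybridised total RNA to 4 arrays labelled by an Affymetrix protocol, 2 for Tc1 and 2 for Tc9, to compare expression between these cell types. In the field, Tc1 cells are CD8 T cells that produce interferon gamma and Tc9 cells are CD8 T cells that produce interleukin 9. The sources used here do not give strain, age, culture time or which cytokines were used. No other agent is named. Each group carries the replicate numbers 1 and 2, with no statement that these were separate cultures or animals, so the spread used by the tests may be technical.

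Fatty acid synthesis starts in the cytosol, where citrate exported from mitochondria is split into acetyl-CoA, carboxylated to malonyl-CoA and condensed into palmitate. Elongases of the endoplasmic reticulum then lengthen the chain, and desaturases insert double bonds. The transcription factor SREBP-1 and the liver X receptors drive many of these genes. T cells that have been activated take up and build fatty acids to make membrane as they grow and divide.

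Most of the pathway was measured at similar levels in the 2 cell types, and 0 of the 10 genes passed the test. The threshold was a Benjamini-Hochberg adjusted p of 0.05 in limma, a linear model with spread shared across genes. Over all genes 0.564% passed in either direction. At an unadjusted p under 0.05, 0 members were higher and 2 lower in Tc9, against 2.94% and 2.34% of all genes. These 2, the elongase gene Elovl6 and the desaturase gene Fads2, were also the members in which both Tc9 arrays lay below both Tc1 arrays, as in 15.1% of all genes. The members with both Tc9 arrays above both Tc1 arrays numbered 0, against 14.0% of all genes. Log2 changes of the 10, as Tc9 minus Tc1, ranged from -0.62 to 0.05 with a median of -0.05, beside a median of -0.0027 over all genes. For 8 of the 10 the size of the change was under 0.1, as for 47.2% of all genes.

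**Figure D1:**
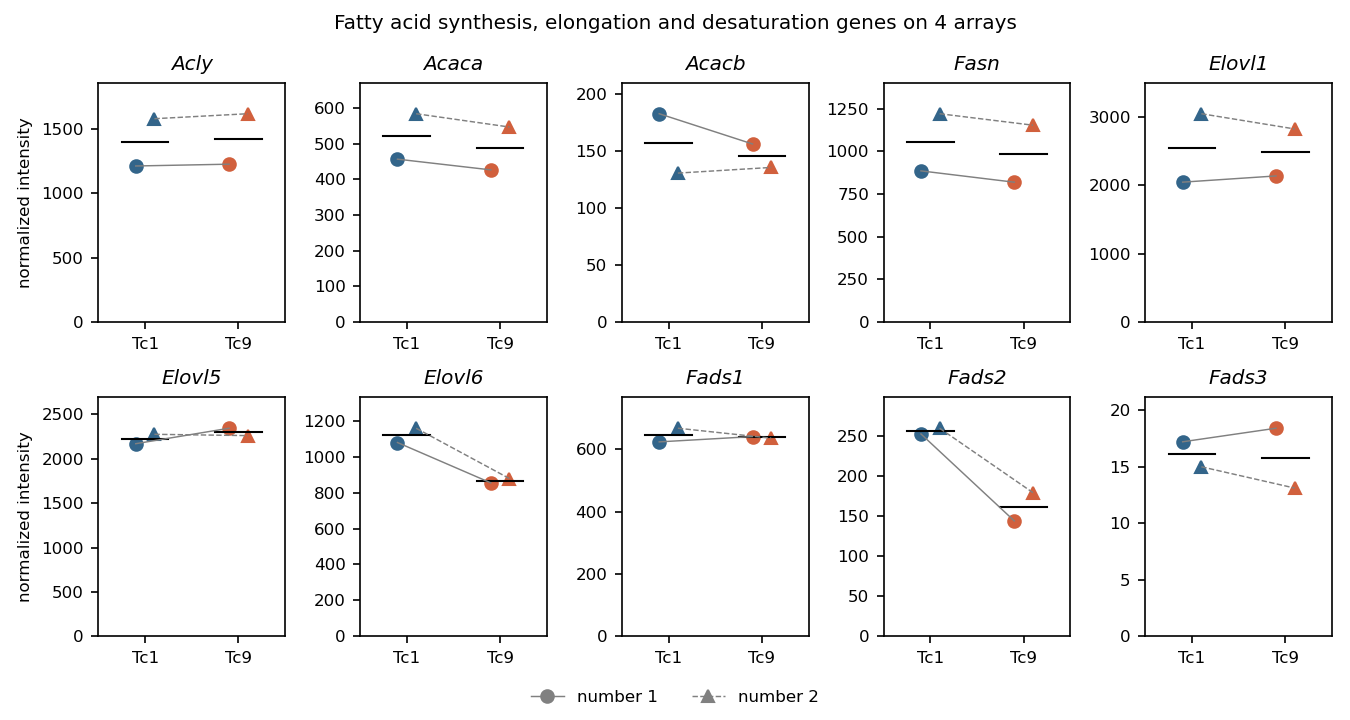
Quantile normalized intensity (y axis, from 0, arbitrary units) of each of the 10 genes on the Tc1 arrays (blue) and Tc9 arrays (orange); circles with solid lines are the arrays numbered 1, triangles with dashed lines those numbered 2, and black bars the group means. Both Tc9 arrays lie below both Tc1 arrays for Elovl6 and Fads2, while for Acly, Acaca and Fasn the arrays numbered 2 lie above those numbered 1 in both groups.

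Because Elovl6 and Fads2 lay on the same side, the sequence before their annotated starts is shown, with that of Fasn, an enzyme gene of similar level in both groups. The sequences are the 250 bases before the RefSeq start, 5′ to 3′ on the gene's strand in GRCm38.p6, and 9 of the 10 members had an entry (Fads1 had none). The windows lie at chr19:10101504-10101753, minus strand, chr3:129532136-129532385, plus strand, and chr11:120824548-120824797, minus strand. Capitals mark matches, on either strand, to 4 motifs: CCAAT (the box bound by NF-Y), GGGCGG (the GC box bound by Sp1), TCACNCCAC (a sterol regulatory element core) and CACGTG (an E-box). CCAAT matches may overlap each other, as at CCAATTGG in Fasn.

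Fads2: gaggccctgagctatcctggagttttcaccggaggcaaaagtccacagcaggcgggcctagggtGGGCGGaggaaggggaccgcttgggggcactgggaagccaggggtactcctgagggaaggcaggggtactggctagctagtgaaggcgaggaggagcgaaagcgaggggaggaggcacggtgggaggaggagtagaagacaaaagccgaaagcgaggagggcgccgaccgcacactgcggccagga

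Elovl6: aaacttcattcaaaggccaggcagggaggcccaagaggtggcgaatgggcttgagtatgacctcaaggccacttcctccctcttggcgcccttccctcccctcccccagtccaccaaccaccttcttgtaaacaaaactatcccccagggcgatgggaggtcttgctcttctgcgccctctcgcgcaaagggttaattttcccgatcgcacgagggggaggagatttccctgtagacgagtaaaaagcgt

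Fasn: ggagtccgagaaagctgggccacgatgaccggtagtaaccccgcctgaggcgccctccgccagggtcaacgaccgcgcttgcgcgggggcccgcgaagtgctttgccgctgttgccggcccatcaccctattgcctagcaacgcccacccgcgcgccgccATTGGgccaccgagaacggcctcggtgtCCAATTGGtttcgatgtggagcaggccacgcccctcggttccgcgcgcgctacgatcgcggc

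The Fads2 window held 1 GC box, starting 186 bases before the start, and the Elovl6 window matched none of the 4 motifs. Among the other members, Acaca also matched none of the 4 motifs. Fasn held 3 CCAAT matches, Acacb held 1, Elovl5 held 2 with 1 E-box, and Acly held 4 GC boxes. Of 2 Elovl1 windows, 1 held 5 GC boxes with 1 CCAAT match and the other held 2 GC boxes. Fads3 held 2 CCAAT matches and 2 GC boxes. The sterol regulatory element letters matched in 0 of the members' windows. Among all 32851 windows of the same length, CCAAT matched in 33.8%, GGGCGG in 32.7%, CACGTG in 6.02% and TCACNCCAC in 1.05%. Because Elovl6 matched none, Fads2 and Elovl6 could share no motif of these 4 in this window. A match is a run of letters and says nothing of whether a factor binds there.

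Levels below are quantile normalized intensities in arbitrary units, which are comparable between arrays for 1 gene but not between genes. Changes are on the log2(value + 16) scale, which understates those of dim genes. Each array measured RNA of a population of cells, so fewer cells with a transcript and less transcript per cell cannot be told apart. All 5 measured CD8 T cell markers (Cd8a, Cd8b1, Cd3d, Cd3e and Cd3g) lay on every array above a background mark, that array's 95th percentile over negative control probe sets. Their summed level was 17253 and 18195 in Tc1 and 18250 and 18959 in Tc9. Of markers of other cells, all 2 of CD4 T cells, 6 of myeloid cells, 2 of NK cells and 3 of hepatocytes lay under the mark on all 4 arrays, as did 3 of 4 for B cells and 4 of 5 for adipocytes. The exceptions were Cd79b, below it on 3 arrays, and Lpl, below it on 1. Summed levels ran from 58.8 to 75.6 over all arrays for the CD4 list, 209 to 288 for the myeloid list, 21.5 to 34.4 for NK cells and 99.5 to 112 for hepatocytes. For B cells they were 131 and 212 in Tc1 and 167 and 246 in Tc9, and for adipocytes 279 and 265 in Tc1 and 255 and 300 in Tc9. Il9, which gives Tc9 cells their name, measured 23.4 and 26.5 in Tc1 and 103 and 81.9 in Tc9, under the mark on all 4 arrays. Its change of 1.40 missed the threshold (limma adjusted p = 0.0679). Ifng, the Tc1 cytokine gene, measured 4699 and 4077 in Tc1 and 2330 and 2104 in Tc9, above the mark on all 4. Ifng fell in Tc9 (-0.98, limma adjusted p = 0.0251).

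The 4 arrays fell into pairs by replicate number in how their values were deposited. Median deposited intensity was 37.1 (Tc1) and 37.9 (Tc9) on the arrays numbered 1 and 57.3 and 57.1 on those numbered 2, written with a median of 10 and 7 digits. Each change is therefore also given within each number. Fits with the replicate number as a block are given where they altered a call. The block left 1 residual degree of freedom and gave genes of like intensity the same spread, so its p-values rest on spread taken from other genes.

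Acly, the ATP-citrate lyase that splits citrate to cytosolic acetyl-CoA, measured 1214 and 1582 on the Tc1 arrays numbered 1 and 2 and 1228 and 1621 on the Tc9 arrays. The groups overlapped almost completely, and the larger gap was between the numbers. Its log2 change was 0.03 ± 0.19 (SE, limma adjusted p = 1.00; 0.02 and 0.03 within numbers 1 and 2), with a 95% interval from -0.42 to 0.47. That interval reaches from 0.746 to 1.39 times the Tc1 level. The Fads2 estimate of -0.62 lies outside it, but the interval of Fads2 (-1.11 to -0.14) overlaps that of Acly. The difference between these genes was not tested.

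Acaca encodes the cytosolic acetyl-CoA carboxylase that makes the malonyl-CoA used for synthesis. It measured 457 and 584 in Tc1 and 427 and 547 in Tc9. Within each number the Tc9 array was slightly lower, by 0.09 and 0.09 on the log2 scale, and the groups overlapped. The interval of its change, -0.09 ± 0.20 (SE, limma adjusted p = 1.00), ran from -0.56 to 0.38. Acacb, the carboxylase of the mitochondrial outer membrane whose malonyl-CoA restrains fatty acid import, measured 182 and 130 in Tc1 and 156 and 135 in Tc9. Its change was -0.21 within number 1 and 0.05 within number 2. On 3 of 4 arrays Acacb lay under the background mark, so that its level is near background.

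Fasn, the synthase that assembles palmitate, measured 885 and 1220 in Tc1 and 819 and 1153 in Tc9. As with Acaca, each Tc9 array was a little below the Tc1 array of its number (-0.11 and -0.08), and the groups overlapped. The change was -0.10 ± 0.22 (SE, limma adjusted p = 1.00) with an interval of -0.61 to 0.42. Of Acly, Acaca, Acacb and Fasn, 0 passed in either direction, including with the replicate block, and their median change was -0.09.

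**Figure D2:**
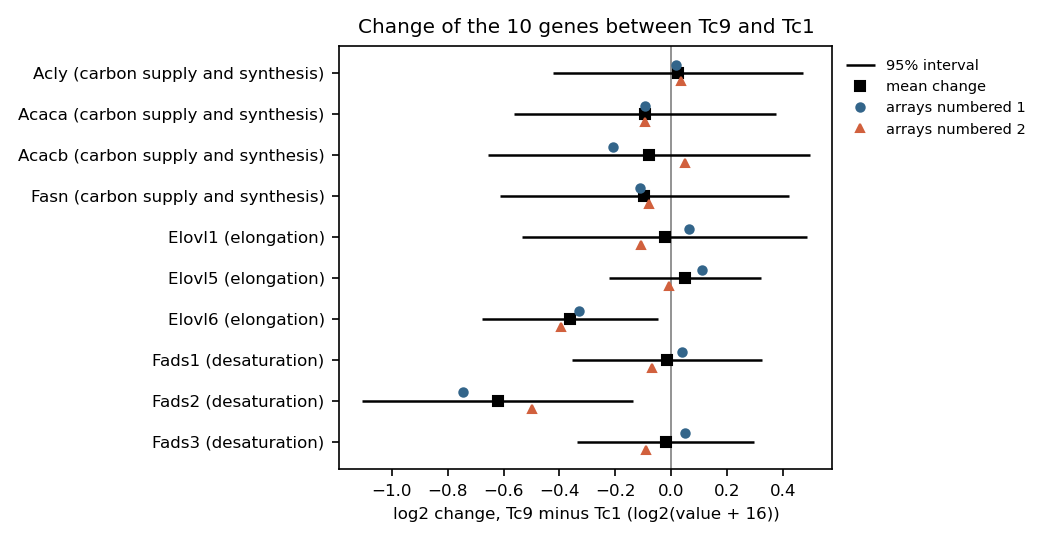
Log2 change (x axis, Tc9 minus Tc1, on the log2(value + 16) scale) of each of the 10 genes, with role in brackets; squares are the mean change, lines its 95% interval from the limma fit with n = 2 arrays per group, circles the change between the arrays numbered 1 and triangles between those numbered 2. The unadjusted intervals of Elovl6 and Fads2 lie below 0, and those of the other 8 genes span 0.

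Among the elongases, the Elovl6 arrays separated by cell type. Elovl6, which extends palmitate to stearate, measured 1078 and 1158 in Tc1 and 854 and 878 in Tc9. Both Tc9 values lay below both Tc1 values, by a gap wider than the spread within either group (SD 56.2 in Tc1 and 16.8 in Tc9, n = 2). The change was -0.36 ± 0.13 (SE), or 1.29-fold lower, with an interval from -0.68 to -0.05 and -0.33 and -0.39 within the numbers. By limma over all genes it missed the threshold (adjusted p = 0.752, unadjusted p = 0.0297). With the replicate block it passed (adjusted p = 2.59e-05), as it did on the values as deposited with the block (3.49e-06). With the block but without the intensity trend, it missed (0.0586). Without the block it also missed on the values as deposited, with median centring and without the trend (limma adjusted p = 0.775 for the last).

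Elovl5, which lengthens polyunsaturated chains, measured 2169 and 2275 in Tc1 and 2344 and 2261 in Tc9. The groups overlapped, and the 2 numbers gave 0.11 and -0.01. Its interval was the narrowest of the 3 elongases, from -0.22 to 0.32 around 0.05 ± 0.12 (SE, limma adjusted p = 1.00). Elovl1, which makes very long saturated and monounsaturated chains, measured 2048 and 3050 in Tc1 and 2139 and 2827 in Tc9. The Tc9 values lay inside the Tc1 range, with a change of -0.02 ± 0.22 (SE, limma adjusted p = 1.00; 0.06 and -0.11 within the numbers). Whether Elovl6 changed by a different amount from Elovl1 or Elovl5 was not tested.

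The desaturase genes Fads3, Fads2 and Fads1 follow one another on chromosome 19 among protein-coding genes of the RefSeq table. Fads2 encodes the desaturase of the first step toward long polyunsaturated fatty acids, and Fads1 that of a later step. Fads2 measured 253 and 260 in Tc1 and 144 and 179 in Tc9. Both Tc9 arrays lay well below both Tc1 arrays, which differed from each other by little (SD 5.04, against 24.9 in Tc9, n = 2). The Tc9 array numbered 1 lay under the background mark, so the fold is less certain there. The log2 change was -0.62 ± 0.21 (SE), or 1.54-fold lower, with an interval from -1.11 to -0.14 and -0.75 and -0.50 within the numbers. It missed the threshold over all genes (limma adjusted p = 0.603, unadjusted p = 0.0193). It passed with the replicate block (adjusted p = 4.02e-05), on deposited values with the block (3.85e-05), and with the block without the intensity trend (0.00578). Without the block it also missed on the values as deposited, with median centring and without the trend (limma adjusted p = 0.413 for the last).

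Fads1 measured 624 and 667 in Tc1 and 641 and 636 in Tc9. The Tc9 arrays lay inside the Tc1 range, and the change was -0.02 ± 0.14 (SE, limma adjusted p = 1.00; 0.04 and -0.07 within the numbers; interval -0.36 to 0.33). The Fads2 estimate lies outside that interval, though the difference between the 2 genes was not tested. Fads3, a relative that acts on sphingoid bases, measured 17.2 and 15.0 in Tc1 and 18.4 and 13.1 in Tc9. It lay under the background mark on all 4 arrays, which leaves its level at background. Sharing of signal between the probe sets of these related genes was not examined.

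With the replicate block, 0 members passed as higher and 2 as lower in Tc9, beside 6.34% and 7.37% of all genes. The 2 were Fads2 and Elovl6.

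Several members differed more by replicate number than by cell type. For 5 of the 10 (Acly, Acaca, Fasn, Elovl1 and Fads3) the gap between numbers was larger in both groups than the gap between cell types in both numbers. The share of all genes with this pattern was not computed, so the count cannot be read as particular to the members. Of the 5, Fads3 lay under the background mark on all 4 arrays. Elovl1 was higher on the arrays numbered 2 by 0.57 in Tc1 and 0.40 in Tc9 on the log2 scale. For Fasn the figures were 0.46 and 0.49, for Acly 0.38 and 0.40, and for Acaca 0.34 and 0.35. Both arrays numbered 2 lay above both numbered 1 for these 4 of the 10 members, against 26.9% of all genes. Acacb went the other way, by -0.44 and -0.18. The number coincides with how values were deposited, so a difference between cultures and one in processing cannot be told apart here. Fads2 and Elovl6 differed less by number than by cell type, at 0.04 and 0.29 for Fads2 and 0.10 and 0.04 for Elovl6.

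**Figure D3:**
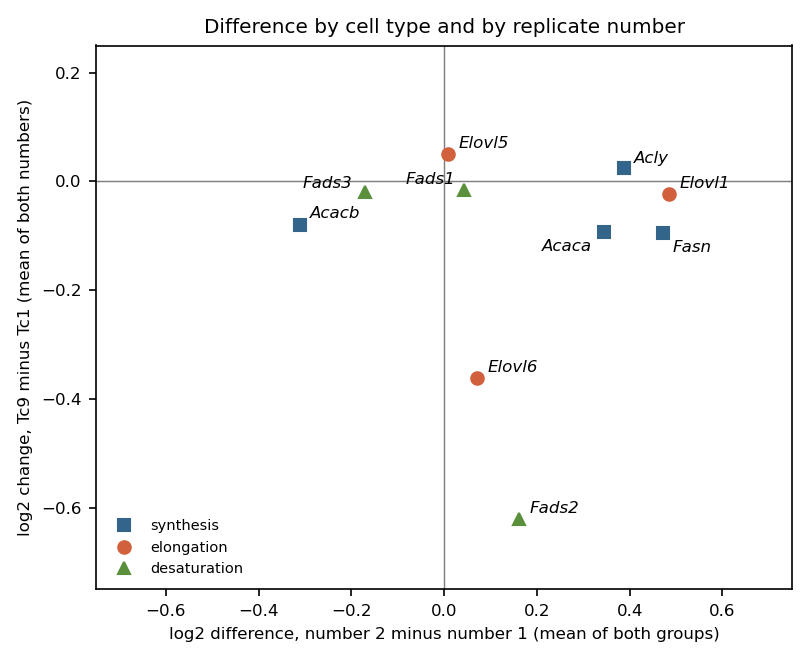
Each of the 10 genes by its log2 difference between arrays numbered 2 and 1 (x axis, mean of both groups) and its log2 change between Tc9 and Tc1 (y axis, mean of both numbers), on the log2(value + 16) scale; squares are synthesis, circles elongation and triangles desaturation genes. Acly, Acaca, Fasn and Elovl1 stand to the right near 0 on the y axis, and Elovl6 and Fads2 stand low, at -0.36 and -0.62.

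Around these enzymes, 37 of 42 listed related genes were measured (Scd2, Srebf1, Mbtps2, Nr1h2 and Hsd17b8 were not analysed here). Of the 37, 1 rose and 0 fell, against 0.385% and 0.179% of all genes. Their median change was 0.00074, beside -0.0027 over all genes, and 17 of them lay under the background mark on all 4 arrays, as did 60.2% of all genes. The riser was Scd1, the stearoyl-CoA desaturase that makes monounsaturated fatty acids. It measured 96.6 and 82.5 in Tc1 and 305 and 427 in Tc9, so the groups stood far apart. The change was 1.84 ± 0.24 (SE), or 3.58-fold higher (limma adjusted p = 0.0251; 1.51 and 2.17 within the numbers). Both Tc1 arrays lay under the background mark, which leaves the fold uncertain. The call was lost on the values as deposited (adjusted p = 1.00), with median centring (0.0522) and without the intensity trend (0.0600). Scd1 thus stood on the other side of 0 from Fads2, the desaturase of polyunsaturated chains.

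Of the 6 measured genes of precursor supply, 0 passed in either direction. Acss1, the mitochondrial acetyl-CoA synthetase, was named after its values were seen. It measured 495 and 483 in Tc1 and 903 and 987 in Tc9. The groups did not overlap, and the change of 0.93 ± 0.14 (SE), or 1.90-fold, just missed the threshold (limma adjusted p = 0.0545; 0.85 and 1.01 within the numbers). It passed with the replicate block (adjusted p = 1.01e-25) and on 5 further alternatives, among them the fits without the Tc1 array numbered 1 or either Tc9 array. The other 9 of 15 alternatives left it uncalled, with adjusted p = 1.00 on the values as deposited, 0.427 with median centring and 0.120 without the intensity trend. Acss2, the synthetase of cytosol and nucleus, measured 264 and 301 in Tc1 and 317 and 317 in Tc9, a change of 0.16 with an interval of -0.26 to 0.58. Both its Tc9 arrays and those of the next gene lay above both Tc1 arrays, by little. Slc25a1, the mitochondrial citrate exporter that feeds Acly, measured 1830 and 1957 in Tc1 and 1965 and 2047 in Tc9 (0.08, interval -0.20 to 0.37).

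In the elongation cycle, the reductases that work with the elongases were close in both groups. Hsd17b12, the ketoacyl reductase, measured 1131 and 854 in Tc1 and 1181 and 895 in Tc9. Tecr, the enoyl reductase, measured 1933 and 2314 in Tc1 and 2293 and 2241 in Tc9. The groups overlapped for both. Elovl7 lay under the background mark on all 4 arrays. Hacd1, a dehydratase of the cycle named after its values were seen, measured 630 and 746 in Tc1 and 495 and 642 in Tc9, a change of -0.27 that passed only in fits with the replicate block and the intensity trend (adjusted p = 0.0155). Without 1 array the Hacd1 change was -0.092 (Tc9 numbered 1 left out), -0.16 (Tc1 numbered 2), -0.39 (Tc1 numbered 1) or -0.46 (Tc9 numbered 2).

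Among controls, Insig1, which retains SREBP in the endoplasmic reticulum and is itself an SREBP target, measured 1174 and 916 in Tc1 and 1200 and 958 in Tc9. Its change was 0.05, with an interval of -0.38 to 0.47. Mid1ip1, which binds acetyl-CoA carboxylase and promotes its polymerization, was named after its values were seen. It measured 239 and 207 in Tc1 and 135 and 121 in Tc9. Both Tc9 arrays lay below both Tc1 arrays and also under the background mark. The change of -0.73 ± 0.21 (SE) missed the threshold (limma adjusted p = 0.441; -0.75 and -0.70 within the numbers) and passed with the replicate block (4.90e-06).

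With the block, 3 of the 37 related genes passed as higher (Scd1, Acss1 and Scap), beside 6.34% of all genes, and 4 as lower (Mid1ip1, Mecr, Fads6 and Hacd1), beside 7.37%. Both shares were close to those of all genes. Mecr and Fads6 were likewise named after their values were seen. Mecr, the enoyl reductase of mitochondrial fatty acid synthesis, measured 396 and 365 in Tc1 and 279 and 267 in Tc9 (-0.45, limma adjusted p = 0.788, with the block 0.000610). Fads6, a desaturase family member, measured 93.4 and 87.5 in Tc1 and 53.0 and 54.6 in Tc9, under the background mark on all 4 arrays. Scap, the escort protein of SREBP, also named after its values were seen, measured 1568 and 1592 in Tc1 and 1723 and 1952 in Tc9 (0.21, limma adjusted p = 1.00, with the block 0.00638). It missed the threshold in both other block fits (0.292 without the trend and 0.0797 on deposited values). The 24 related genes not named here had changes between -0.27 and 0.31, and 15 of them lay under the background mark on all 4 arrays.

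**Figure D4:**
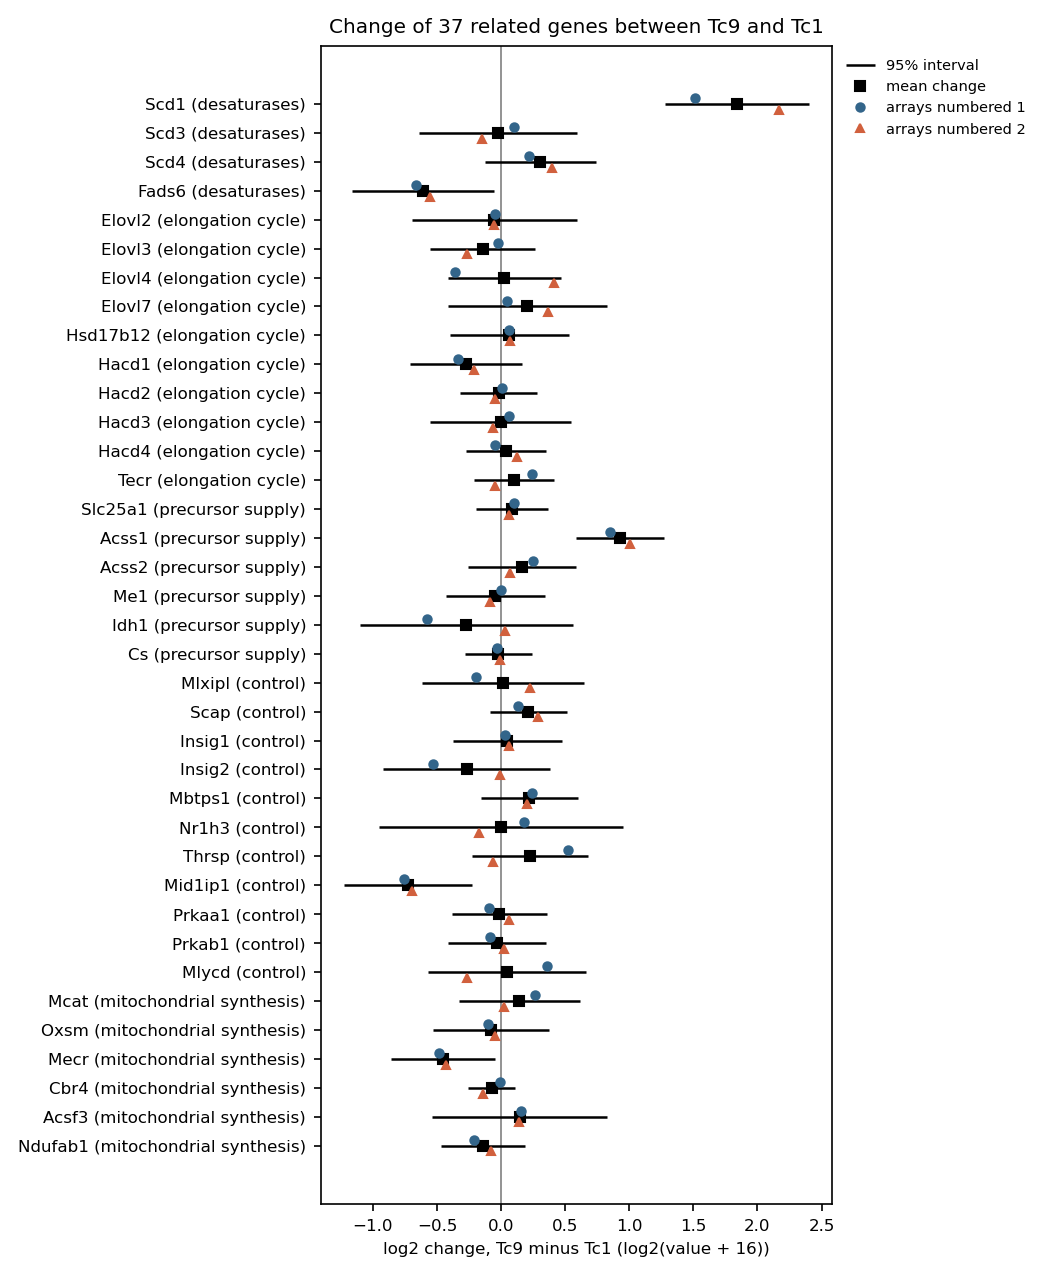
Log2 change (x axis, Tc9 minus Tc1, on the log2(value + 16) scale) of the 37 related genes, with role in brackets; squares are the mean change, lines its 95% interval from the limma fit with n = 2 arrays per group, circles the arrays numbered 1 and triangles those numbered 2. Scd1 at 1.84 and Acss1 at 0.93 stand to the right, Mid1ip1 at -0.73 to the left, and most other intervals span 0.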

How the data were processed

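The authors deposited 1 intensity per probe set and array, for 28846 probe sets on 4 arrays; the labels name biotin labelling and an Affymetrix protocol, and for background correction, summarization and genome build the sources used here give nothing. That the scale is linear follows from the range of the values. The 6640 control probe sets were left out, 5222 of them named as negative controls, whose 95th percentile on each array (123 to 218 in deposited intensity) served as a background mark. The other 22206 were quantile normalized together, 16 was added and log2 taken. The platform annotation named 19572 of them. The brightest probe set stood for a gene (55 genes had several). Tc9 minus Tc1 was tested with limma 3.58.1 in R 4.3.3 (eBayes with an intensity trend; 2 residual and 5.09 prior degrees of freedom), adjusted by Benjamini-Hochberg over 19505 genes, 2-sided, with groups from the sample titles. The main fit was tried on simulated data with independent noise and no difference between replicate numbers. The block fits were not tried on simulated data. With 2 arrays per group, their number limits the precision.

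The members and lists were chosen with earlier results of these data known. All members are named; of the related genes, those past the threshold and 9 set by function (Scd1, Scd2, Srebf1, Insig1, Slc25a1, Acss2, Hsd17b12, Tecr and Elovl7), and others where said. Alternatives were the normalization, pseudocount, filter, variance model, probe set rule, replicate block and each array left out; 2 combining the block with another choice were added after the data were seen.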

Additional observations from a re-analysis of the deposited data

How the results depend on the processing

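Of 344 gene results under alternatives (23 named genes, up to 15 alternatives), 296 kept direction and call, 23 gained a call, 3 lost it and 22 changed sign, all 22 of the last uncalled in both fits. Among the 296, only the results of Scd1 were called, and the others were uncalled in both fits. The filter, the variance model and the block leave the estimate itself unchanged, so the direction could not change under these choices alone. Members called lower went from 0 to 2 with the replicate block, 2 with the block on deposited values and 1 with the block without the intensity trend; members called higher stayed at 0 throughout. Related genes called higher numbered 1 in the main fit, 0 on the values as deposited, with median centring and without the intensity trend, 3 with the replicate block, 2 in both other block fits and 1 to 2 without 1 array; those called lower were 0, and 4, 3 and 4 with the block, with the block without the trend and with the block on deposited values. All genes called were 110, against 16 on the values as deposited, 56 without the trend, 2674, 1426 and 2813 in the same order of block fits, and 186 to 274 without 1 array. Deviations from group means correlated across genes with r = 0.729 between arrays of the same number, but with only 2 pairs and no statement in the labels this does not show that the numbers pair the samples.

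Uncalled signs turned for Acly on the values as deposited (-0.019), with median centring (-0.041) and with the block on deposited values (-0.019). Leaving out 1 array turned Acly (-0.17 to -0.16 where turned; all such fits -0.17 to 0.22), Acaca (-0.27 to 0.080), Acacb (-0.30 to 0.14), Fasn (-0.34 to 0.15), Elovl1 (-0.31 to 0.26), Fads1 (-0.063 to 0.032), Fads3 (-0.14 to 0.10), Elovl7 (-0.16 to 0.57), Hsd17b12 (-0.14 to 0.26), Tecr (-0.030 to 0.23) and Insig1 (-0.13 to 0.22). Elovl6 (-0.41 to -0.31) and Fads2 (-0.77 to -0.48) kept their sign in all 15. With both Tc9 arrays below both Tc1 arrays in these genes, leaving out 1 array could not turn the sign. Their kept sign is therefore no further support for a change. With 1 array left out, the lone array of a group is assumed to vary like the other group. Signal near background limits Fads3, Acacb and the Tc9 level of Fads2.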
